A study of Mus musculus with 15 samples.

Results

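The SOCS and Pim genes downstream of STAT5 are 7 genes, Cish, Socs1, Socs2, Socs3, Pim1, Pim2 and Pim3. They were picked by name, as standard products of JAK/STAT signaling. Earlier results of these data were known when they, the gene lists and the tests were chosen. All 7 were found by symbol among the 45232 gene IDs of the count table, and all 7 were among the 17834 genes with enough reads to be tested.

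Cytokine receptors carry JAK kinases, which phosphorylate STAT factors, and phosphorylated STAT5 enters the nucleus and switches on genes that include these families. The SOCS proteins, with CIS encoded by Cish, act as the brake on this route. They bind phosphorylated receptors or the kinases themselves and bring in a ubiquitin ligase built on elongins and cullin 5, so their transcripts are often read as a sign of recent signaling. The Pim kinases are survival and growth kinases that are active as soon as they are made, so that their level is set mostly by how much is transcribed and how long the protein lasts.

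The cells were CD45.2+ LSK cells of C57BL/6 bone marrow. LSK cells are the lineage-negative, Sca-1+ and c-Kit+ fraction that contains stem and early progenitor cells. In 4 groups, CD45.2 cells carried Jak2 V617F, which keeps the kinase active, together with Idh2 R140Q, which makes the enzyme produce 2-hydroxyglutarate. These cells had been mixed in equal parts with CD45.1 WT marrow and grown in lethally irradiated CD45.1 hosts. Both alleles were switched on by Mx1-Cre after polyI:polyC, an agent that itself evokes interferon, and Mx1-Cre acts in blood cells of all kinds and not in LSK cells alone. Recipients got vehicle, the mutant IDH2 inhibitor AG221 (40 mg/kg), the JAK inhibitor ruxolitinib (60 mg/kg) or both (combined treatment); these are the doses of the labels, and the methods also name a higher one of AG221. Doses were given by gavage 2 times a day for 21 to 28 days, the last about 1.5 hours before sacrifice. The study used adult mice of both sexes. The fifth group was WT LSK cells, and the sources used here do not say whether these came from transplanted mice, and the labels do not tie a library to 1 mouse or a pool. Each group had 3 libraries.

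Total counts ran from 18836625 to 32174287 per library. Between 29782 and 34487 genes had a count in WT libraries, against 21369 to 26329 in the others. The letter that opens a replicate name was B for combined treatment and WT and A for everything else. Its meaning is not stated, so every comparison of WT or combined treatment with vehicle, AG221 or ruxolitinib cannot be told apart from A against B. Y-linked transcripts summed to at most 0.134 CPM (counts scaled to a common library size by TMM) in WT and to between 284.7 and 511.4 CPM in the mutant libraries, so mutant against WT cannot be told apart from a difference in sex. Of the LSK markers, Kit (739.8 to 1552 CPM) and Cd34 (665.0 to 1107.6 CPM) were high in every library, and Ly6a, which encodes Sca-1, ran from 13.1 CPM in vehicle A4 to 165.8 CPM in vehicle A1. Markers of other cells were not all near 0. Of the T cell genes Cd3e stayed at or below 1.24 CPM but Lck ran from 6.47 to 63.8 CPM, and of the neutrophil genes Ly6g stayed at or below 2.26 CPM but Ngp reached 186.5 CPM and Elane, which early progenitors also make, ran from 649.8 to 4821 CPM. Vehicle replicate A3 stood apart in several of the 7 genes, and values are given with and without it. In bulk RNA, fewer cells that make a transcript and less of it per cell cannot be told apart.

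STAT5 binds as a dimer to the palindrome TTCNNNGAA, and for 6 of the 7 genes RefSeq promoter windows (250 bases before to 50 after a start, GRCm38.p6) were at hand; Socs2 had none. The letters TTCNNNGAA were found in 8.30% of all 32851 windows, and the wider pattern with 4 bases between TTC and GAA in 6.95%. The stretch of the Cish window on chr9:107296657-107296680 (plus strand) is shown because it holds both of that window's matches (capitals), which begin at bases 1 and 12 of the transcript.
Cish: ttTTCCTGGAAagTTCTTGGAAat
The Socs3 window held 1 match (capitals), 154 bases before the start, on chr11:117969507-117969525 (minus strand).
Socs3: cagccTTCTTAGAAgggag
The windows of Socs1, Pim1 (2 windows), Pim2 and Pim3 held neither spacing. Because the Socs1 and Pim3 transcripts varied together, the bases before both starts are given, for Socs1 on chr16:10785537-10785786 (minus strand, 61.2% G and C) and for Pim3 on chr15:88861944-88862185 (plus strand, 67.4% G and C). Capitals mark 2 overlapping matches of GAAA and GAAA set 2 bases apart, the spacing of interferon response elements, 83 and 77 bases before the Socs1 start; this motif was searched on both strands, was chosen after the data were seen and lies in 3.44% of all windows. The Pim3 stretch had no match to any of these patterns. A match describes letters and not binding.
Socs1: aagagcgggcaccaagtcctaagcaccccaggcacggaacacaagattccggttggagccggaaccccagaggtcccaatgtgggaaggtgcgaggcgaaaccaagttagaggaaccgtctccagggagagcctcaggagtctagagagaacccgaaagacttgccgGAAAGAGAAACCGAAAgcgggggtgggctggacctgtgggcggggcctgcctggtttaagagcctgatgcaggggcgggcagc
Pim3: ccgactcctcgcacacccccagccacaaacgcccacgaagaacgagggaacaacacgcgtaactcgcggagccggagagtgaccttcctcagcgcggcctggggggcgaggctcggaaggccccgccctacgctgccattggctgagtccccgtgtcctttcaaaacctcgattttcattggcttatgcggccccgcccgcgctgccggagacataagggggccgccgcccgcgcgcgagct

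The inhibitors come first. Cish (ENSMUSG00000032578, GRCm38 chr9:107296026-107302784, plus strand) encodes CIS, which competes with STAT5 for docking sites on receptors. In the vehicle libraries A1, A3 and A4 its level was 17.7, 73.4 and 13.9 CPM, and in WT it was 16.4, 17.4 and 17.9 CPM. A3 was far above every other library; A1 lay within the range of WT and A4 below it. With AG221 the level was 12.3, 13.5 and 17.5 CPM, with ruxolitinib 12.9, 12.6 and 7.91 CPM, and with combined treatment 7.36, 15.1 and 7.12 CPM. Every ruxolitinib library was below every vehicle library, whereas combined treatment overlapped vehicle through replicate B25. The order of the group means was vehicle (35.0 ± 33.3 CPM, SD, n = 3), WT (17.2 ± 0.745), AG221 (14.4 ± 2.76), ruxolitinib (11.1 ± 2.79) and combined treatment (9.87 ± 4.56), and each group overlapped the next in that order. Antisense genes cover 11.5% of the exons of Cish and had at most 6 counts in any library.

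Socs1 (ENSMUSG00000038037, GRCm38 chr16:10782240-10785536, minus strand) encodes the SOCS protein that shuts off JAK kinases directly and is best known as a brake on interferon signaling. It was the rarest of the 7, with 13, 34 and 25 counts in the vehicle libraries A1, A3 and A4, 1, 15 and 5 counts with AG221 (A8, A9 and A10), and 16, 2 and 11 counts with ruxolitinib (A14, A16 and A17). It had 80, 132 and 40 counts with combined treatment (B24, B25 and B26) and 76, 216 and 65 counts in WT (B28, B30 and B31). All 6 combined and WT libraries were above all 9 others. Scaled, the level was 1.85 to 4.56 CPM with combined treatment and 2.18 to 7.28 CPM in WT, against 0.489 to 1.08 CPM with vehicle, 0.0427 to 0.704 CPM with AG221 and 0.0855 to 0.754 CPM with ruxolitinib. The means fell in the order WT (4.07 ± 2.79 CPM, SD, n = 3), combined treatment (3.53 ± 1.47), vehicle (0.853 ± 0.320), ruxolitinib (0.417 ± 0.334) and AG221 (0.309 ± 0.348), and of the neighbours only combined treatment and vehicle did not overlap. The split follows the letters A and B of the replicate names, and its source cannot be told apart from them.

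Socs2 (ENSMUSG00000020027, GRCm38 chr10:95385362-95417180, minus strand) encodes the SOCS protein best known for curbing growth hormone signaling. Its level in the vehicle libraries A1, A3 and A4 was 5.41, 85.4 and 7.89 CPM, with AG221 1.97, 9.85 and 5.64 CPM, with ruxolitinib 18.9, 4.79 and 3.73 CPM, with combined treatment 3.86, 16.9 and 7.45 CPM, and in WT 7.95, 8.22 and 5.30 CPM. Apart from A3, no library was above 18.9 CPM, and no 2 groups were clear of each other. The means were 32.9 ± 45.5 CPM with vehicle (SD, n = 3), 9.40 ± 6.74 with combined treatment, 9.15 ± 8.49 with ruxolitinib, 7.16 ± 1.62 in WT and 5.82 ± 3.95 with AG221.

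Socs3 (ENSMUSG00000053113, GRCm38 chr11:117966079-117970047, minus strand) encodes the SOCS protein that binds gp130 and the G-CSF receptor and blocks the JAKs there; STAT3 induces it as well as STAT5. The vehicle libraries had 17.8, 54.7 and 21.9 CPM and the WT libraries 5.73, 7.65 and 7.61 CPM, so that vehicle was higher in all libraries. The level was 4.83, 28.1 and 8.51 CPM with AG221, 39.6, 3.25 and 25.03 CPM with ruxolitinib, and 9.03, 22.3 and 23.7 CPM with combined treatment. Combined treatment also did not overlap WT, while the single drug groups each held libraries below WT. The means were 31.4 ± 20.2 CPM with vehicle (SD, n = 3), 22.6 ± 18.3 with ruxolitinib, 18.3 ± 8.10 with combined treatment, 13.8 ± 12.5 with AG221 and 6.998 ± 1.10 in WT, each overlapping the next.

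The Pim kinases follow. Pim1 (ENSMUSG00000024014, GRCm38 chr17:29490753-29496112, plus strand) is the family member first found as a site of viral insertion in mouse lymphoma. Its highest library was 4.15 times its lowest, the smallest such ratio of the 7, with 19.1, 15.0 and 16.02 CPM in the vehicle libraries, 21.5, 21.5 and 22.2 CPM with AG221, 13.9, 5.34 and 9.51 CPM with ruxolitinib, 15.2, 15.0 and 14.9 CPM with combined treatment and 12.6, 16.9 and 14.3 CPM in WT. AG221 libraries were above, and ruxolitinib libraries below, all vehicle libraries. The means were 21.7 ± 0.39 CPM with AG221 (SD, n = 3), 16.7 ± 2.15 with vehicle, 15.1 ± 0.151 with combined treatment, 14.6 ± 2.20 in WT and 9.60 ± 4.30 with ruxolitinib, and of the neighbours only AG221 and vehicle did not overlap. The antisense gene Gm26885 covers 14.5% of its exons and had at most 15 counts in a library.

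Pim2 (ENSMUSG00000031155, GRCm38 chrX:7878262-7883432, plus strand) is the kinase most tied to survival and protein synthesis in blood cells. Its level was 38.7, 116.1 and 42.4 CPM with vehicle, 7.99, 56.6 and 13.5 CPM with AG221, 24.1, 6.15 and 16.7 CPM with ruxolitinib, 25.4, 41.4 and 48.3 CPM with combined treatment and 44.0, 48.1 and 44.5 CPM in WT. Ruxolitinib libraries were below all libraries of vehicle, combined treatment and WT, and AG221 replicate A9 was far above the other AG221 libraries. The means were 65.7 ± 43.7 CPM with vehicle (SD, n = 3), 45.5 ± 2.21 in WT, 38.4 ± 11.8 with combined treatment, 26.03 ± 26.6 with AG221 and 15.7 ± 9.03 with ruxolitinib, each overlapping the next.

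Pim3 (ENSMUSG00000035828, GRCm38 chr15:88862186-88865726, plus strand) is the third and least studied kinase of the family. The level was 5.83, 13.0 and 13.2 CPM with vehicle, 3.46, 11.5 and 3.49 CPM with AG221, 12.8, 2.73 and 9.81 CPM with ruxolitinib, 40.5, 35.6 and 15.0 CPM with combined treatment and 15.0, 27.6 and 11.0 CPM in WT. Combined treatment was above every library of the vehicle, AG221 and ruxolitinib groups. The means were 30.4 ± 13.5 CPM with combined treatment (SD, n = 3), 17.8 ± 8.66 in WT, 10.7 ± 4.21 with vehicle, 8.45 ± 5.17 with ruxolitinib and 6.16 ± 4.65 with AG221, each overlapping the next.

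**Figure D1:**
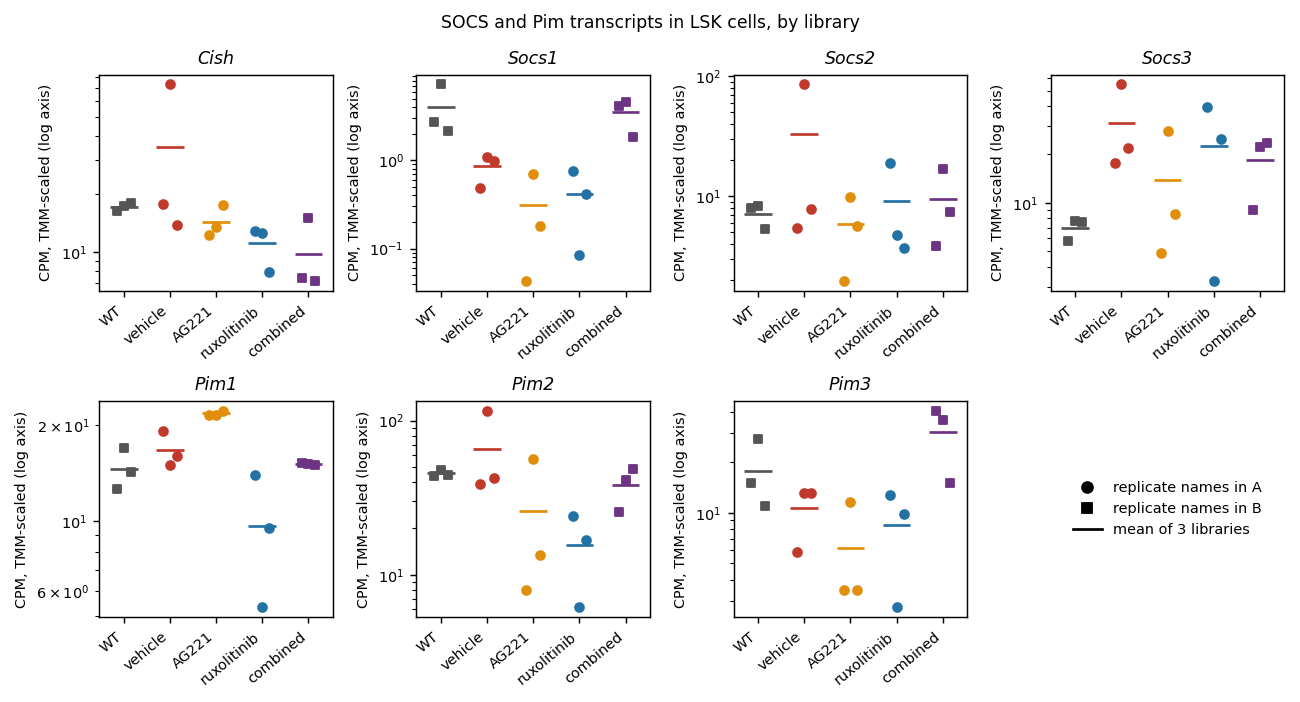
Level of each of the 7 transcripts in CPM (TMM-scaled, log axis) for the 3 libraries of each group, with a line at the group mean; circles are libraries whose replicate names begin with A, squares those that begin with B. Socs1 was higher in all squares (1.85 CPM or more) than in all circles (1.08 CPM or less), and vehicle replicate A3 is the top point for Cish, Socs2, Socs3 and Pim2.

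In RPKM (CPM per kilobase of exon), Pim2 had the highest mean of the Pim family in all 5 groups. With AG221 that rested on A9 (Pim2 20.3, Pim1 6.39). In A8 and A10 Pim1 (6.41 and 6.60) was above Pim2 (2.86 and 4.83). Pim2 led in vehicle (23.5 ± 15.6, SD, n = 3) and WT (16.3 ± 0.79), where it made up 59.8% to 80.9% and 51.2% to 64.5% of the family's summed RPKM per library. With combined treatment Pim2 (13.7 ± 4.21) and Pim3 (12.5 ± 5.57) were close, and in B24 Pim3 (16.7) was above Pim2 (9.09). The Pim3 share was 22.2% to 55.1% with combined treatment and 22.9% to 31.5% with ruxolitinib, both clear of the 10.5% to 21.4% with vehicle. In WT it was 18.3% to 33.8%, which overlapped combined treatment and vehicle, and with AG221 it was 11.2% to 15.1%. Among the inhibitors, Socs3 had the highest mean RPKM in every group but WT, from 4.77 with AG221 to 10.9 with vehicle, and in WT Cish (2.69 ± 0.116) and Socs3 (2.42 ± 0.379) were at like levels. Cish was above Socs3 in AG221 A8 (1.91 against 1.67) and ruxolitinib A16 (1.96 against 1.12). Socs1 had the lowest mean in all groups but combined treatment and WT, where the mean of Socs2 (0.987 and 0.751 RPKM) was lower. With combined treatment that rested on B24 (Socs2 0.405, Socs1 1.44). In B25 (Socs2 1.77, Socs1 1.57) and B26 (Socs2 0.781, Socs1 0.636) Socs1 was the lower. Against all genes tested, Pim2 was above 83.7% of genes with vehicle and Socs1 above 20.8%.

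Vehicle against WT sets cells with both mutations against WT cells. It also sets libraries named A against B, with the difference in Y-linked transcripts given above. Of the 7, Socs3 rose and Socs1 fell in the mutant cells (edgeR quasi-likelihood F test, p-values adjusted over all genes tested by the Benjamini-Hochberg method, threshold 0.05), where 33.3% of all tested genes passed, so 2 of 7 is about the background. Socs3 was higher by 2.17 on the log2 scale (SE 0.790, adjusted p = 0.049), and Socs1 was lower, with a log2 fold change of -2.25 (SE 0.734, adjusted p = 0.033). The remaining 5 did not pass, with a log2 fold change of 2.20 for Socs2 (SE 0.977, adjusted p = 0.095), 1.02 for Cish (SE 0.507, adjusted p = 0.13), 0.53 for Pim2, 0.19 for Pim1 and -0.74 for Pim3. The median over the 7 was 0.53, against -0.09 over all genes tested. Socs1 and Socs3 were also the only members whose groups did not overlap, which held for 56.9% of all genes.

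Both calls leaned on single libraries. The Socs3 call was lost when any 1 of the 6 libraries was left out, with adjusted p-values from 0.0571 to 0.157 and a log2 fold change from 1.52 to 2.47. The Socs1 call was lost without vehicle A1 (adjusted p = 0.109), A3 (0.0528) or A4 (0.0717) and without WT B30 (0.171), and its log2 fold change stayed between -2.53 and -1.52. Without A3, the differences of Cish (-0.11), Socs2 (-0.08) and Pim2 (-0.15) changed sign, and Socs3 was at 1.52 (adjusted p = 0.157).

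**Figure D2:**
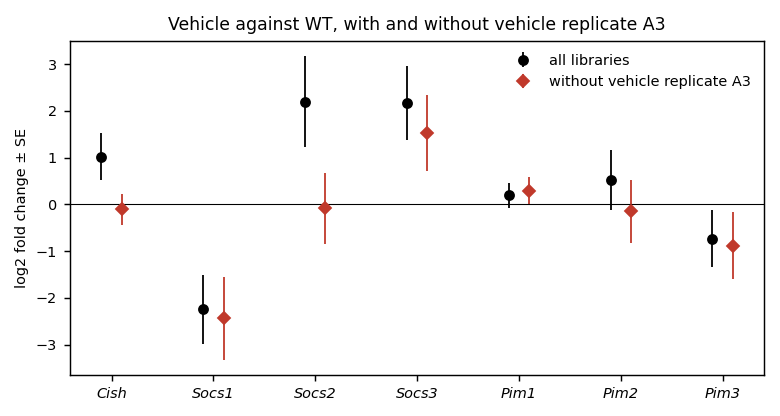
Log2 fold change of vehicle against WT for the 7 genes, with bars of ±1 SE, from all libraries (black circles) and without vehicle replicate A3 (red diamonds). Cish, Socs2 and Pim2 lie above 0 with A3 and just below it without, while Socs1 (-2.25 and -2.44) hardly moves.

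Vehicle replicate A3 held 12.8 times as much Socs2 as the mean of the other vehicle libraries. Among the 17834 genes it was at rank 7, with ranks taken after a small constant was added to both levels. The ratio was 4.65 for Cish (rank 50), 2.86 for Pim2 (rank 236) and 2.76 for Socs3 (rank 276), and 1.47, 1.37 and 0.852 for Socs1, Pim3 and Pim1. These 4 high genes and the immediate early genes, which switch on within minutes of a stimulus or of handling, were highest together in A3. The immediate early sum there was 16450 CPM, against 7725 and 9308 CPM in the other vehicle libraries. Whether the 2 are linked was not tested.

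Other transcripts moved between vehicle and WT as well, where 33.3% of all genes passed. Of 23 immediate early genes, 17 rose and none fell (median log2 fold change 2.65, against -0.09 over all genes), and their sum was 7725 to 16450 CPM with vehicle and 921.2 to 1256 CPM in WT. The transcription factors Atf3 and Klf6 were higher by 7.23 and 3.59 on the log2 scale (adjusted p = 3.27e-07 and 1.92e-07). Mast cell and basophil markers were higher for 7 of 9 genes (693.8 to 1195 CPM against 108.5 to 195.4 CPM in sum), neutrophil markers for 4 of 10 (7824 to 12840 against 3476 to 3833 CPM), megakaryocyte markers for 4 of 8 (1005 to 1336 against 604.6 to 759.4 CPM), monocyte and dendritic cell markers for 4 of 10 (959.8 to 1513 against 760.3 to 804.5 CPM) and erythroid markers for 3 of 10 (1745 to 2698 against 1575 to 1734 CPM). Plasma cell markers were lower for 5 of 6 (65.8 to 156.8 against 598.6 to 1298 CPM) and B cell markers for 4 of 8 (41.2 to 51.6 against 68.9 to 98.5 CPM). T and NK cell markers were higher for 1 of 9 genes tested, with a lower sum (9.79 to 35.8 against 47.7 to 54.6 CPM). Of 10 LSK markers, Slamf1 was higher and Hlf, Flt3 and Procr were lower, and the sum was 2340 to 3481 against 4024 to 4416 CPM. Their part in the Socs1 and Socs3 differences was not tested.

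The single drugs, compared with vehicle, ask how each target alone bears on these genes; both comparisons lie within the libraries named A. With AG221, no member passed, where 0.987% of all genes did (176 of 17834), and DESeq2 called none where it passed 20.4% of genes. Cish and Socs2 had an unadjusted p under 0.05, as did 4498 of the 17834 genes tested. The log2 fold changes were -2.50 for Socs2 (SE 0.992, adjusted p = 0.146), -1.28 for Cish (SE 0.511, adjusted p = 0.149), -1.49 for Socs1, -1.34 for Pim2, -1.19 for Socs3, -0.80 for Pim3 and 0.38 for Pim1. Pim1 was the only member whose groups did not overlap, against 20.0% of all genes. Without vehicle A3, Socs2 was at -0.20 and Cish at -0.14, and without AG221 A9 Pim2 (-2.62, adjusted p = 0.00675) and Socs1 (-2.84, adjusted p = 0.0414) passed, as did 24.4% of all genes in that fit.

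With ruxolitinib, no member passed either, where 0.0168% of genes did (3 of 17834), and DESeq2 called none where it passed 0.254% of genes. Cish, Pim1 and Pim2 had an unadjusted p under 0.05, as did 813 of the 17834 genes tested. These 3 members did not overlap vehicle, all lower, where 8.17% of genes did not overlap. The log2 fold change was -2.07 for Pim2 (SE 0.671, adjusted p = 0.872), -1.66 for Cish (SE 0.517, adjusted p = 0.828) and -0.80 for Pim1 (SE 0.264, adjusted p = 0.872). It was -1.85 for Socs2, -1.04 for Socs1, -0.48 for Socs3 and -0.34 for Pim3. All 7 were thus below 0 (median -1.04, against 0.01 over all genes), and without A3 Pim2 was at -1.37, Pim1 at -0.87 and Cish at -0.51, while Socs2 (0.45) and Socs3 (0.19) turned positive.

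Combined treatment against vehicle sets both drugs together against none, and also libraries named B against libraries named A. Cish fell, with a log2 fold change of -1.82 (SE 0.520, adjusted p = 0.035), where 12.5% of all genes passed. Without vehicle A3 it was at -0.68 (adjusted p = 0.22), and it also failed without combined B24 (adjusted p = 0.146) or B26 (0.113) and in a fit of only these groups (0.118). That last fit called 1 other member in place of Cish, where 15.7% of all genes passed. Socs1 and Pim3 were higher in every combined library than in every vehicle library, which held in either direction for 34.7% of genes, but neither passed. Their log2 fold changes were 2.04 (SE 0.734, adjusted p = 0.089) and 1.51 (SE 0.617, adjusted p = 0.133), and Socs1 passed with DESeq2 (adjusted p = 0.038). Socs2 (-1.80, and 0.50 without A3), Socs3 (-0.78), Pim2 (-0.78) and Pim1 (-0.15) did not pass. The median over the 7 was -0.78, against 0.04 over all genes.

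Comparisons of combined treatment with each drug alone also set libraries named B against A. Against AG221 alone, Socs1 was higher with combined treatment by 3.53 on the log2 scale (SE 0.819, adjusted p = 0.00704) and Pim3 by 2.31 (SE 0.637, adjusted p = 0.0154), where 33.2% of genes passed. Both, and Pim1 in the other direction, did not overlap AG221, where 44.6% of genes did not. Socs1 kept its call without any 1 library (adjusted p from 0.00125 to 0.0368), and Pim3 lost it without AG221 A8 (0.072), AG221 A10 (0.0674) or combined B24 (0.0562). Against ruxolitinib alone Socs1 rose by 3.08 (SE 0.791, adjusted p = 0.0206), where 12.4% of genes passed, and Pim3 was at 1.85 (adjusted p = 0.0727). That Socs1 call was lost without ruxolitinib A16 (0.0812) or A17 (0.0754) or combined B24 (0.065) or B25 (0.0703). Pim2 and Pim1 were also above all ruxolitinib libraries, as were Socs1 and Pim3 (35.5% of genes did not overlap), with log2 fold changes of 1.29 and 0.65, without passing.

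Other cell markers moved in the same comparisons, where 33.2% (AG221), 12.4% (ruxolitinib) and 12.5% (vehicle) of all genes passed. Between combined treatment and AG221, 7 of 10 neutrophil markers were lower (4305 to 7727 against 17360 to 20470 CPM in sum). Lower too were 7 of 10 monocyte and dendritic cell markers (661.0 to 1126 against 1596 to 2159 CPM) and 12 of 23 immediate early genes. The 3 of 10 LSK markers that were higher are about the share over all genes. Against ruxolitinib, 11 immediate early genes, 4 of 10 neutrophil markers and 4 of 10 erythroid markers were lower. Against vehicle, 15 immediate early genes were lower (861.1 to 1509 against 7725 to 16450 CPM in sum), as were 3 of 9 mast cell and basophil markers. Their part in the Cish, Socs1 and Pim3 differences was not tested.

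Set against the sum of both single drug changes, the change with combined treatment lay higher for all 7 genes, with a median excess of 2.55 on the log2 scale against 0.07 over all genes. Without vehicle A3 the median excess was 0.35 and 6 of 7 lay above 0, with Cish at -0.028, Socs2 at 0.25, Socs3 at 0.23 and Pim2 at 1.94. With all libraries, the excess passed for Socs1, at 4.58 (SE 1.134, adjusted p = 0.038), where 8.42% of genes passed. It was 2.64 for Pim3 (adjusted p = 0.0676), 2.63 for Pim2 (adjusted p = 0.0792), 2.55 for Socs2, 1.11 for Cish, 0.89 for Socs3 and 0.27 for Pim1. The Socs1 call was lost without vehicle A3 (0.0854) or A4 (0.0775), AG221 A8 (0.0949) or A10 (0.102), ruxolitinib A16 (0.076) or A17 (0.0735), or combined B24 (0.0985) or B25 (0.0905).

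**Figure D3:**
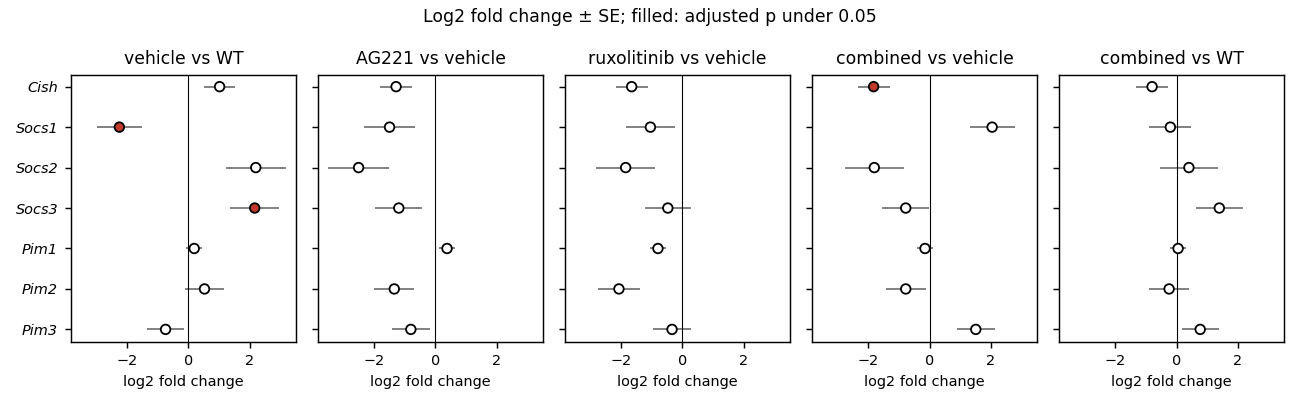
Log2 fold change ±1 SE of the 7 genes in 5 comparisons, with red points for an adjusted p under 0.05. Socs1 and Socs3 against WT and Cish with combined treatment are the filled points, and with combined treatment against WT no gene is filled.

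Compared with WT, the groups given 1 drug remained low in Socs1. Its log2 fold change was -3.74 with AG221 (SE 0.821, adjusted p = 0.00303), where 50.7% of genes passed, and -3.29 with ruxolitinib (SE 0.793, adjusted p = 0.0106), where 32.3% of genes passed. The first call held without any 1 library, and the second was lost without WT B30 (adjusted p = 0.0549). No other member passed in either comparison. Both comparisons set libraries named A against libraries named B. Neutrophil markers were also higher than in WT (9 of 10 with AG221 and 6 with ruxolitinib), as were immediate early genes (14 and 16 of 23), and plasma cell markers were lower (6 and 5 of 6). Their part was not tested. Socs1 and Pim1 did not overlap between AG221 and WT (61.3% of all genes), and Socs1, Cish and Pim2 did not between ruxolitinib and WT (58.1%). With combined treatment no member differed from WT at the threshold, which 3.25% of genes passed. No member had an unadjusted p under 0.05 either, where 4529 of the 17834 genes tested did. DESeq2 called none where it passed 9.10% of genes. The log2 fold changes ran from -0.80 for Cish (SE 0.509, adjusted p = 0.341) to 1.39 for Socs3 (SE 0.775, adjusted p = 0.275), and Socs1 was at -0.21 (SE 0.686, adjusted p = 0.877). Both groups carry the letter B, and Cish (lower) and Socs3 (higher) did not overlap, against 41.6% of all genes.

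Between the 2 drugs, Pim1 was higher with AG221 than with ruxolitinib by 1.18 on the log2 scale (SE 0.265, adjusted p = 0.036), where 3.43% of genes passed, and all 3 libraries of each group lay apart, as did 20.8% of genes. The call was lost without AG221 A8 (adjusted p = 0.111) or A10 (0.0979), without ruxolitinib A14 (0.0546) or A17 (0.127), and in a fit of only these groups (0.251). For the other 6 genes the 2 drugs overlapped, with log2 fold changes from -0.71 for Socs3 (SE 0.761) to 0.73 for Pim2 (SE 0.653).

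Several of the 7 followed the base composition of the libraries. As a measure, the GC contrast of a library is the mean log2 deviation of the genes in the top quartile of G and C content minus that of the genes in the bottom quartile. It was lowest in AG221 A8 (-0.59), AG221 A10 (-0.39) and ruxolitinib A16 (-0.21), and it lay between -0.15 and 0.33 in the others. These 3 libraries were also the lowest for Socs1, Pim2 and Pim3. Over 15 libraries, which share depth and group, Pearson's r with this contrast after group means were taken out was 0.870 for Pim2, 0.827 for Socs3, 0.756 for Socs1 and 0.721 for Pim3, and 0.502, 0.360 and 0.105 for Socs2, Pim1 and Cish. The exons of Pim3 are 61.9% G and C, those of Socs1 58.8%, Socs3 58.7%, Pim1 56.0%, Pim2 54.7%, Cish 53.1% and Socs2 45.4%.

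Leaving out these 3 together, a choice made after the data were seen, leaves AG221 with 1 library, A9, which is the AG221 library highest in Socs1, Socs2, Socs3, Pim2 and Pim3 and is then assumed to vary like the other groups. Genes called over all fell to 0.481% for combined against AG221, 9.53% for AG221 against WT, 0.106% for the excess over the sum and 0 between the 2 drugs. The calls of Socs1 were lost for combined against AG221 (2.30, adjusted p = 0.188), for AG221 against WT (-2.51, adjusted p = 0.0838) and for the excess (2.88, adjusted p = 0.416). The calls of Pim3 for combined against AG221 (1.38, adjusted p = 0.313) and of Pim1 between the drugs (0.86, adjusted p = 0.448) were lost too. Combined treatment against vehicle then passed for Socs1 (1.999, adjusted p = 0.0244) and Pim3 (1.46, adjusted p = 0.0387), where 15.3% of genes passed. With a GC offset per library in place of leaving libraries out, the Socs1, Pim3 and Pim1 calls listed above as lost all held. In combined against AG221, Socs1 was then at 2.93 and Pim3 at 1.22. For combined treatment against vehicle that offset called only 1 member, so Socs1 and Pim3 did not both pass there. The part that base composition has in these differences was not tested further.

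The 7 genes did not move as 1 block. As a description over 15 libraries that share groups and depth, the closest pair was Socs1 and Pim3, with r = 0.932 for log2 CPM (0.948 after group means were taken out, 0.917 to 0.947 when any 1 library was left out). Pim2 and Socs3 followed each other within groups (r = 0.934, but 0.618 over all 15). Cish and Socs2 had r = 0.724, which rested on vehicle A3 (0.272 without it). Cish had r = 0.0258 with Socs1 and Pim1 had r = 0.120.

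**Figure D4:**
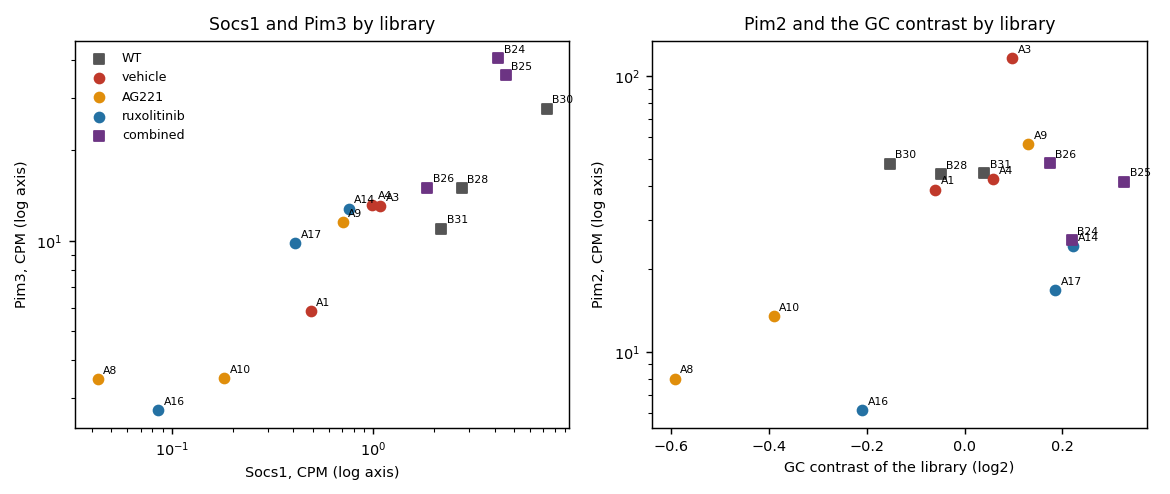
Left, Socs1 against Pim3 in CPM for the 15 libraries (both axes log); right, Pim2 in CPM (log axis) against the GC contrast of the library. Circles have replicate names in A and squares in B; the points labelled A8, A10 and A16 lie at the lower left of both plots.

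The tested genes most like each member over the 15 libraries were Prg3 (r = 0.916) and Inpp4b (0.903) for Cish, Phf13 (0.980) and Rftn1 (0.971) for Socs1, Rap1gap (0.843) and Tmod1 (0.805) for Socs2, and Robo3 (0.867) and Pgam1 (0.851) for Socs3. They were Smg1 (0.858) and 6030400A10Rik (0.841) for Pim1, Rsad1 (0.874) and Tha1 (0.866) for Pim2, and Mgat2 (0.983) and Txndc11 (0.977) for Pim3. Prg3 encodes an eosinophil granule protein, and Inpp4b a lipid phosphatase. Each pair was picked as the highest of the 17834 genes tested. Prg3 ran from 1.26 to 15.1 CPM within the vehicle group, and its r with Cish without A3 was not computed.

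Further genes of the pathway came from fixed lists, whose counts stand against 33.3% of all genes called for vehicle against WT and 12.5% for combined treatment against vehicle. Of the 4 SOCS genes beyond the members, Socs5, which restrains IL-4 and EGF receptor signaling, was lower with vehicle than in WT (-1.89, adjusted p = 0.0045) and higher with combined treatment than with vehicle (1.86, adjusted p = 0.00556), and no other passed in these comparisons. Its mean was 8.35 CPM with vehicle, 30.98 CPM in WT and 30.4 CPM with combined treatment. Socs6 was lower with AG221 than with vehicle (-0.96, adjusted p = 0.0458). In that comparison no gene at all passed without AG221 A8 or A10 or without vehicle A1 or A4, nor in a fit of only these groups. Of 15 other brakes on JAK/STAT signaling, 2 rose and 2 fell with vehicle against WT, no larger a share than over all genes. Sh2b3, the adaptor LNK that holds back JAK2, fell (-1.81, adjusted p = 0.00373), as did the SUMO ligase Pias2 (-1.33, adjusted p = 0.00621), while the phosphatase Ptpn2 (0.57) and the ubiquitin ligase Cblb (0.47) rose. In combined treatment against vehicle, Sh2b3 (2.21, adjusted p = 0.00229) and Pias2 (1.61, adjusted p = 0.00358) were higher and the ISG15 protease Usp18, Cblb and the phosphatase Ptprc lower. With AG221, where 0.987% of all genes passed, only Cblb of this list did, lower (-0.73), a call lost in the same fits as that of Socs6. With ruxolitinib no gene of any list passed, where 0.0168% of all genes did.

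Among the JAK and STAT genes, Stat6 (0.45) rose and Jak2 fell (-0.57) with vehicle against WT, and both moved the other way with combined treatment against vehicle, where Jak2 rose by 1.09 on the log2 scale (adjusted p = 0.0021) and Stat6 was at -0.46 (adjusted p = 0.047). Neither Stat5a nor Stat5b passed in these 2 comparisons. Both comparisons share the vehicle libraries. Of 25 receptor chains, 4 rose and 3 fell with vehicle against WT, again no larger a share than over all genes. Csf2rb (1.76, adjusted p = 0.000963) and its near copy Csf2rb2 (2.33, adjusted p = 0.00533), the signaling chains of the IL-3 and GM-CSF receptors, were higher, and reads may be split between them; the interferon-gamma receptor chain Ifngr1 rose (0.84), and Osmr, Prlr and Ghr fell. With combined treatment Csf2rb (-1.32) and Csf2rb2 (-2.38) were the 2 called, both lower.

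Of 14 cytokine genes 7 were tested, and with vehicle against WT Osm (3.88, adjusted p = 4.91e-06), Il6 (2.24) and Lif (1.92), ligands of gp130 receptors, rose while Clcf1 and Kitl fell. In combined treatment against vehicle, Osm (-3.34), Lif (-2.44) and Il6 (-1.24) were lower and Ctf1 higher. With AG221 Il6 was lower than with vehicle (-1.52, adjusted p = 0.0458), a call lost without AG221 A8 or A10 or vehicle A1 or A4. Osm, itself a STAT5 target, was at 128.4 to 160.7 CPM with vehicle, 55.7 to 117.8 CPM with AG221 and 56.4 to 113.0 CPM with ruxolitinib, against 12.7 to 16.7 CPM with combined treatment and 9.07 to 10.3 CPM in WT. Of 20 other STAT5 targets, 7 rose and 1 fell with vehicle against WT (median log2 fold change 0.33, against -0.09 over all genes), led by the activation marker Cd69 (4.03), Osm and the cell cycle inhibitor Cdkn1a (3.002). In combined treatment against vehicle 5 of the 20 were lower, the same 3 leading (Cd69 -3.62, Osm -3.34, Cdkn1a -2.19), and Bcl2 was higher (0.86). Against WT, combined treatment called none of these 20, where 3.25% of all genes passed.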

How the data were processed

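The authors aligned paired-end reads of SMARTer-amplified RNA to mm10 with STAR 2.5.1a and deposited raw counts per Ensembl gene; the annotation release and strand setting are not given in the sources used here. A second deposited table, a signal made by dividing each library's counts by 1 DESeq2 (1.6.3) size factor, was checked and not used. The reads have no molecular identifiers.

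Groups came from the sample titles. Symbols, coordinates and exon lengths came from GENCODE (44585 of 45232 IDs matched), and promoters from RefSeq. The members, lists and tests were chosen with earlier results of these data known. Of 37904 genes with a count, 17834 passed filterByExpr, and all 15 libraries entered 1 quasi-likelihood fit with TMM factors (edgeR 4.0.16, R 4.3.3; common biological coefficient of variation 0.313). A gene was called where its p-value, adjusted over all genes tested by the Benjamini-Hochberg method, was under 0.05, and the departure from the sum is combined minus AG221 minus ruxolitinib plus vehicle. The study describes its treated samples as mice, but the labels do not tie a library to 1 mouse, so p-values measure the spread between libraries, which may be partly technical. The smallest nonzero limit, 3 counts, is 0.0932 CPM in the deepest library and covers counting error only. Correlations used log2 CPM with a prior count of 2. Named genes are the members, up to 3 genes per list and direction with the smallest adjusted p-values, and the 2 genes most like each member. Marker genes given as a check of the sorted cells, and values of genes not called, were chosen after the data were seen.

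Alternatives were DESeq2 1.42.0, RLE and upper quartile factors, no filter, at least 10 counts in every library, a GC content offset (lowess span 0.3), only the groups compared, and leaving out each library. Tests were checked on simulated counts. No sequences of the proteins were used here. The result of 1 gene of the fixed lists is not reported here.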

Additional observations from a re-analysis of the deposited data

Results flagged for a closer look

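For Socs1, the change with combined treatment differed from the sum of the changes with each drug by 4.58 on the log2 scale (SE 1.134, adjusted p = 0.038, edgeR quasi-likelihood F test, Benjamini-Hochberg adjusted), in a test of the difference itself. The log2 fold change against vehicle was -1.49 with AG221, -1.04 with ruxolitinib and 2.04 with combined treatment. Socs1 had 13 to 34 counts per library with vehicle, 1 to 15 with AG221, 2 to 16 with ruxolitinib and 40 to 132 with combined treatment. The letter of the replicate names changes between combined treatment and the other 3 groups and cannot be told apart from it. Without AG221 A8, AG221 A10 and ruxolitinib A16 the value was 2.88 (adjusted p = 0.416), in a fit with 1 AG221 library in which 0.106% of all genes passed.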

How the results depend on the processing

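No paired analysis was possible because replicate names share no number across groups. Of the alternatives for single genes, 741 kept direction and side of the threshold, 42 lost the call, 36 gained it and 25 turned the sign. An alternative that kept the direction but gave a gene no adjusted p-value is counted among the 741. Leaving out 1 library moved vehicle against WT from -0.11 (without vehicle A3) to 1.42 for Cish, from -0.083 (without A3) to 2.73 for Socs2 and from -0.15 (without A3) to 0.82 for Pim2. It moved ruxolitinib against vehicle from -2.95 to 0.45 (without A3) for Socs2, from -1.15 to 0.19 (without A3) for Socs3 and from -0.77 to 0.079 (without ruxolitinib A16) for Pim3, with Socs3 at 0.037 without ruxolitinib A16. Combined against vehicle ran from -2.54 to 0.50 (without A3) for Socs2. Combined against WT ran from -0.49 to 0.52 (without WT B30) for Socs1, with 0.12 without combined B26, from -0.32 (without combined B25) to 0.79 for Socs2 and from -0.034 (without WT B28) to 0.17 for Pim1. Without the 3 libraries of lowest GC contrast Pim3 with AG221 (0.085) and Socs3 (0.031) and Pim3 (0.068) with ruxolitinib turned positive against vehicle. Pim1 in combined against WT was -0.16 under upper quartile factors, -0.080 with at least 10 counts in every library and -0.015 with only the groups compared. For the departure from the sum, leaving out 1 library gave -0.028 (without A3) to 1.50 for Cish and -0.072 (without ruxolitinib A16) to 0.65 for Pim1. Pim1 there was also -0.024 under upper quartile factors, -0.051 with the GC offset and -0.012 without the 3 libraries, where Socs3 was -0.65. Pim2 between the drugs ran from -0.55 (without AG221 A9) to 1.18. None of these had passed.

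Numbers of members called changed as follows. DESeq2 called 2 for combined against vehicle, 2 for combined against ruxolitinib, 3 for AG221 against WT, 2 for ruxolitinib against WT and 3 for the departure from the sum, where it called 15.3%, 16.2%, 42.1%, 30.2% and 24.4% of all genes in turn. At least 10 counts in every library, which removed Socs1, left 0 for vehicle against WT, 1 for combined against AG221, 0 for combined against ruxolitinib, 0 for ruxolitinib against WT and 0 for the departure. In that setting 26.8%, 45.6%, 18.0%, 32.9% and 19.5% of all genes passed in turn. No filter gave 2 for combined against ruxolitinib, 2 for AG221 against WT, 3 for ruxolitinib against WT and 3 for the departure. Of the 37904 genes tested in that setting, 1949, 9869, 5504 and 1878 passed in turn. The GC offset gave 2 for combined against ruxolitinib, AG221 against WT and ruxolitinib against WT, where 13.3%, 52.7% and 35.7% of all genes passed. Upper quartile factors gave 3 for AG221 against WT and 2 for the departure, where 50.8% and 17.5% of all genes passed. Only the groups compared gave 3 for AG221 against WT, 2 for ruxolitinib against WT, and 0 for AG221 against ruxolitinib and for the departure. Of all genes 47.8%, 37.4%, 0% and 1.03% passed there in turn. Without the 3 libraries of lowest GC contrast AG221 keeps 1 library, so numbers of members called are not given for that fit. Leaving out 1 library gave the following, with the share of all genes in brackets. It was 0 to 1 member for vehicle against WT (10.5% to 30.9%), combined against vehicle (5.26% to 10.3%) and AG221 against ruxolitinib (0% to 25.1%). It was 0 to 2 for AG221 against vehicle (0% to 24.4%), combined against ruxolitinib (5.99% to 9.92%) and ruxolitinib against WT (10.6% to 27.1%). It was 1 to 3 for combined against AG221 (15.7% to 42.6%) and AG221 against WT (33.9% to 56.4%), and 0 to 3 for the departure (0.230% to 31.8%). The causes were not tested beyond the fewer genes or libraries that an alternative uses.

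Over all genes, calls for vehicle against WT numbered 5937 and ran from 1901 to 9904 over the alternatives. For AG221 against vehicle 176 ran from 0 to 4672, for ruxolitinib against vehicle 3 from 0 to 50, for combined against WT 579 from 88 to 1855, for combined against vehicle 2226 from 1006 to 3462, for combined against AG221 5917 from 109 to 8140, for combined against ruxolitinib 2217 from 1137 to 2955, for AG221 against WT 9040 from 2160 to 10793, for ruxolitinib against WT 5759 from 1910 to 6811, for AG221 against ruxolitinib 612 from 0 to 4808 and for the departure 1502 from 24 to 6087. Depth limits Socs1 most, at 1 count in AG221 A8 and 2 in ruxolitinib A16.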

Other observations

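Transcripts for proteins that the Pim kinases act on, and for the ligase that the SOCS box recruits, were also counted. Of 13 genes for Pim substrates, 4 rose and 2 fell with vehicle against WT, where 33.3% of all genes passed. The cell cycle inhibitors Cdkn1a (3.002, adjusted p = 4.38e-05) and Cdkn1b (1.38, adjusted p = 0.000229) and the death factor Bad (0.61, adjusted p = 0.00854) led those that rose on the log2 scale, and the factors Foxo3 (-1.32, adjusted p = 0.00212) and Foxo1 (-1.12, adjusted p = 0.0345) fell. The median of the list was -0.08, against -0.09 over all genes. In combined treatment against vehicle, where 12.5% of all genes passed, Foxo3 (1.36), the phosphatase Cdc25a (1.32) and Runx3 (1.62) were higher and Cdkn1a (-2.19) and Cdkn1b (-1.01) lower. In combined treatment against WT, where 3.25% of all genes passed, only Bad was called, higher (0.62, adjusted p = 0.0341). These comparisons share libraries. Neither single drug called any gene of this list against vehicle, where 0.987% (AG221) and 0.0168% (ruxolitinib) of all genes passed.

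Of 6 genes for the elongin and cullin 5 ligase, Rnf7 (0.45, adjusted p = 0.0204) and Elob (0.50, adjusted p = 0.049) rose with vehicle against WT and none fell, where 33.3% of all genes passed. None passed with AG221, ruxolitinib or combined treatment against vehicle (edgeR's quasi-likelihood test), where 0.987%, 0.0168% and 12.5% of all genes did.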
